A study of Homo sapiens with 12 samples.

Results

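The genes of the constitutive proteasome were followed in 2 human cancer cell lines after knockdown of the histone demethylase KDM3A. Members were all genes whose array annotation symbol begins with PSMA, PSMB, PSMC, PSMD, PSME, PSMF or PSMG and a number, without the immunoproteasome genes PSMB8, PSMB9 and PSMB10 and without pseudogenes. The rule gave 46 genes, and 43 of them were among the 14061 genes whose signal was high enough to be tested. Of the 46, 39 encode parts of the proteasome, its assembly chaperones or its regulators, and 7 only share the prefix (PSMA3-AS1, PSMC3IP, PSMD14-DT, PSMD6-AS2, PSMD7-DT, PSME3IP1 and PSMG3-AS1). The 39 fall into 7 alpha and 7 beta subunits of the 20S core, 5 ATPases and 9 other subunits of the 19S cap, 7 assembly chaperones and 4 activators or inhibitors. The 3 members left untested were PSMA8, PSMD7-DT and PSMD14-DT, whose signals lay near background. PSMA8, a testis form of an alpha subunit, ranged from 1.1 to 34.6 over the 12 arrays. PSMA6, PSMB11, PSMC5, PSMD7, PSMD13 and PSME2 had no probe set of their own in the annotation and were not analysed here.

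Transcript levels were measured in total RNA on 12 Affymetrix U133 Plus 2.0 arrays, 2 for each of 6 groups. SW780, a bladder carcinoma line kept in Leibovitz L-15 medium, and A549, a lung adenocarcinoma line kept in RPMI1640, were each transfected with siKDM3A, siFFluc or siEGFP duplexes at 100 nM with lipofectamine 2000, and RNA was taken after 24 h. siFFluc and siEGFP, named for reporter genes, served as the 2 controls, so each line had 2 siKDM3A arrays against 4 control arrays, and all 6 groups had received an siRNA. Each line is 1 established line, the sources do not give the number of different siKDM3A duplexes, and the number of arrays limits the precision. The labels leave unsaid whether replicate arrays came from separate cultures, so the p-values reflect only how far these arrays differ, which may be technical variation.

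Values are MAS5 signals, a linear brightness summarised over the probes of a probe set, scaled by the authors so that the trimmed mean of every array was 500.1. Array medians lay between 50.2 and 58.9. KDM3A had signals of 197 and 223 with siKDM3A in SW780, against 359 and 433 with siFFluc and 409.8 and 373 with siEGFP, and of 693 and 712 with siKDM3A in A549, against 1519 and 1437 with siFFluc and 1299.7 and 1307 with siEGFP. It fell in both lines without overlap between the groups (log2 fold change -0.86 ± 0.10, adjusted p = 0.000274 in SW780, and -0.97 ± 0.10, adjusted p = 8.34e-05 in A549), as the labels state. Urothelial markers were mixed in SW780. UPK1A lay at 1568 to 2144 and GATA3 at 10803 to 16049, against 13.7 to 75.5 and 303 to 422 in A549. UPK1B, at 8502.0 to 11274.4, and PPARG, at 4699.6 to 5861.3, were also above A549, at 590.3 to 750.6 and 2152.4 to 2784.6. UPK2, KRT20 and UPK3A were dim in SW780, at 77.6 to 194.1, 46.8 to 115.6 and 4.0 to 9.3. None of the 5 lung markers examined exceeded 211 in A549, and NKX2-1, a defining lung factor, lay between 2.5 and 26.0, with SFTPB at 92.1 to 210.8 and NAPSA at 45.9 to 120.8, so lung markers were dim there beside the epithelial keratin KRT18 at 24380.4 to 27172. Of the leukocyte markers, PTPRC did not exceed 24.0 and LYZ 42.7 on any array. CD3E reached 67.5 in SW780 and CD14 reached 91.4 in A549. The fibroblast marker LUM lay at 300.3 to 608.8 in SW780 and 374.1 to 605.0 in A549. COL1A1 lay at 94.6 to 172.8 and 453.1 to 725.8. COL1A2, DCN and PDGFRB did not exceed 92.2. Of the endothelial markers, VWF lay at 136.5 to 209.6 in SW780, PECAM1 reached 140.6 and CDH5 18.8. A signal from bulk RNA cannot tell fewer expressing cells from less RNA per cell.

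The proteasome degrades proteins that carry ubiquitin chains. Its barrel, the 20S core, has outer alpha rings that gate the entry and inner beta rings that hold the proteolytic sites, and the 19S cap recognises ubiquitin, removes it and unfolds the substrate with a ring of ATPases. Dedicated chaperones assemble both parts, other activators can replace the cap, and in human cells the transcription factor NFE2L1 is known to raise many subunit genes together when proteasome activity falls. KDM3A removes methyl groups from lysine 9 of histone H3, a mark of silenced chromatin.

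In SW780, 4 of the 43 tested members rose and 4 fell under siKDM3A, and in A549 8 rose and 1 fell, by limma's moderated test on log2(signal + 16) with Benjamini-Hochberg adjustment over all 14061 genes and a threshold of 0.05. Changes are given as log2 fold changes ± SE. Over all genes tested the shares called were 5.68% higher and 6.15% lower in SW780, and 5.33% higher and 6.34% lower in A549. The members that rose in SW780 were PSMG1, PSMG4, PSMA3-AS1 and PSMC3IP, and those that fell were PSMD1, PSMD2, PSMD3 and PSME4. In A549, PSMC6, PSMD4, PSMD6, PSMD8, PSMG2, PSMG4, PSME3 and PSME3IP1 rose and PSMD9 fell. PSMG4 was the member called in both lines. The called changes were small, their folds lying between 0.768 and 1.31 in SW780 and between 0.805 and 1.36 in A549.

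The median log2 change of the 43 members was 0.01 in SW780, beside 0.03 over all genes, and 0.09 in A549, beside -0.02 over all genes. In A549 21 of 43 members had both siKDM3A arrays above all 4 control arrays and 4 had both below, where 17.0% and 19.9% of all genes did. In SW780 6 members lay above and 6 below, where 15.3% and 13.3% of all genes did. The A549 excess depended on the scaling: after quantile normalization 14 members lay above and 6 below, with 19.3% and 16.2% of all genes, and the members' median was 0.05. The split of calls moved too, to 6 higher and 2 lower in A549 after quantile normalization and to 19 higher and 0 lower after scaling to equal medians, which itself moved the A549 median over all genes to 0.13. In SW780 scaling to equal medians gave 0 higher and 6 lower. The 99th percentile of signal, where the brightest subunit genes lie, moved in the same way, at 14376 and 14462 on the A549 siKDM3A arrays against 13375 to 13758 on the controls, and its part in the result was not tested.

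**Figure D1:**
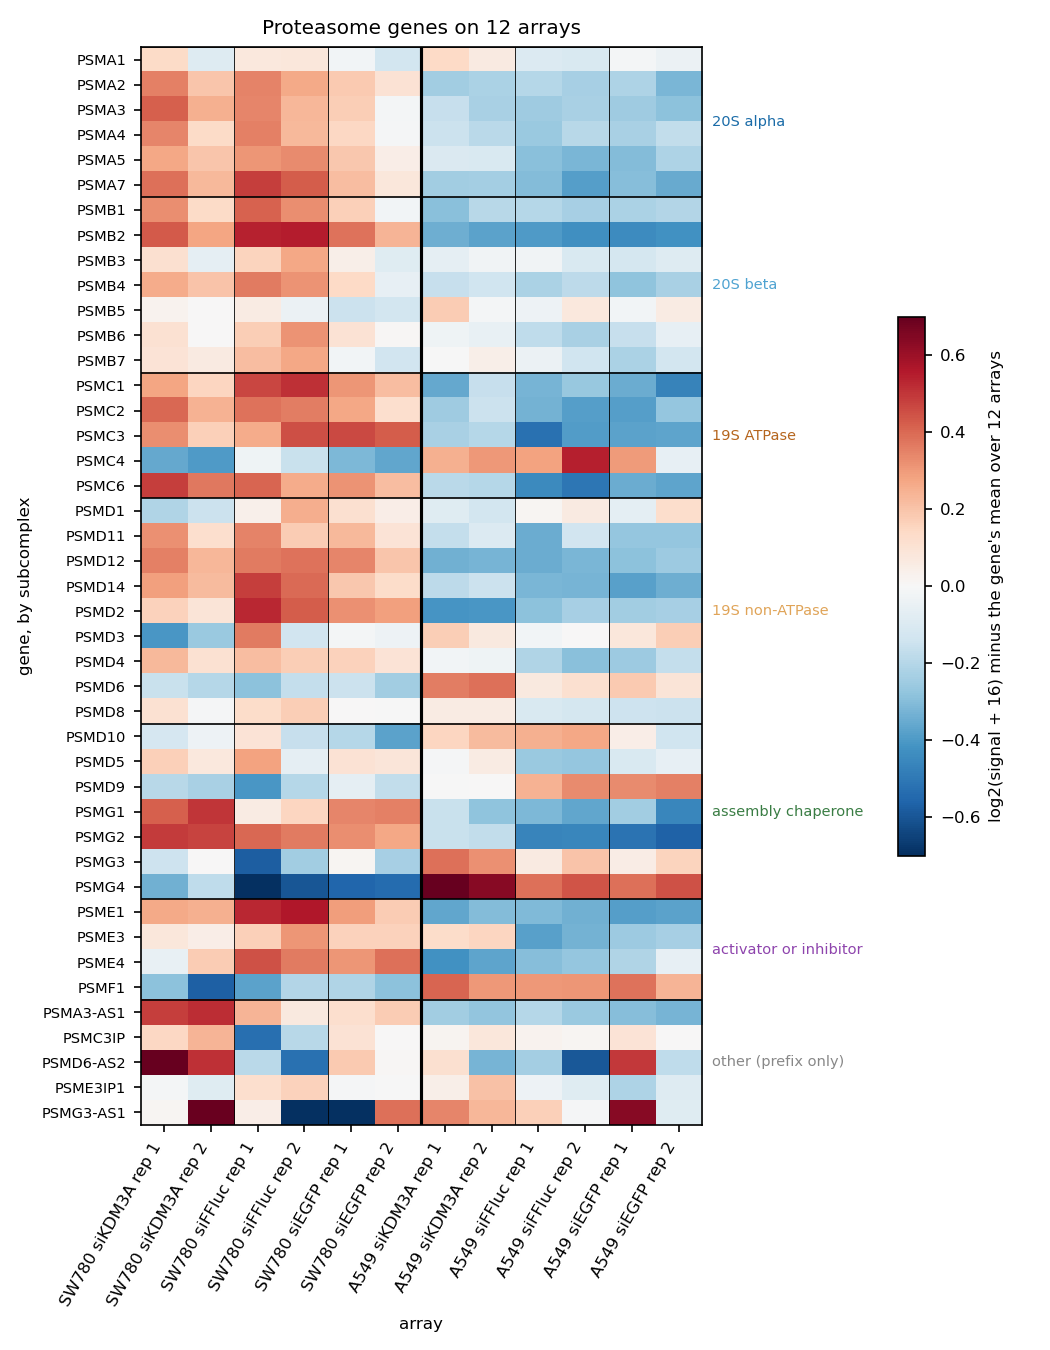
Each cell is log2(signal + 16) of a tested member on 1 array minus that gene's mean over the 12 arrays, with genes grouped by subcomplex and arrays by line and siRNA. The strongest contrast runs between SW780 and A549, PSMG4 and PSMG2 running in opposite directions, and the siKDM3A columns differ from their controls far less.

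**Figure D2:**
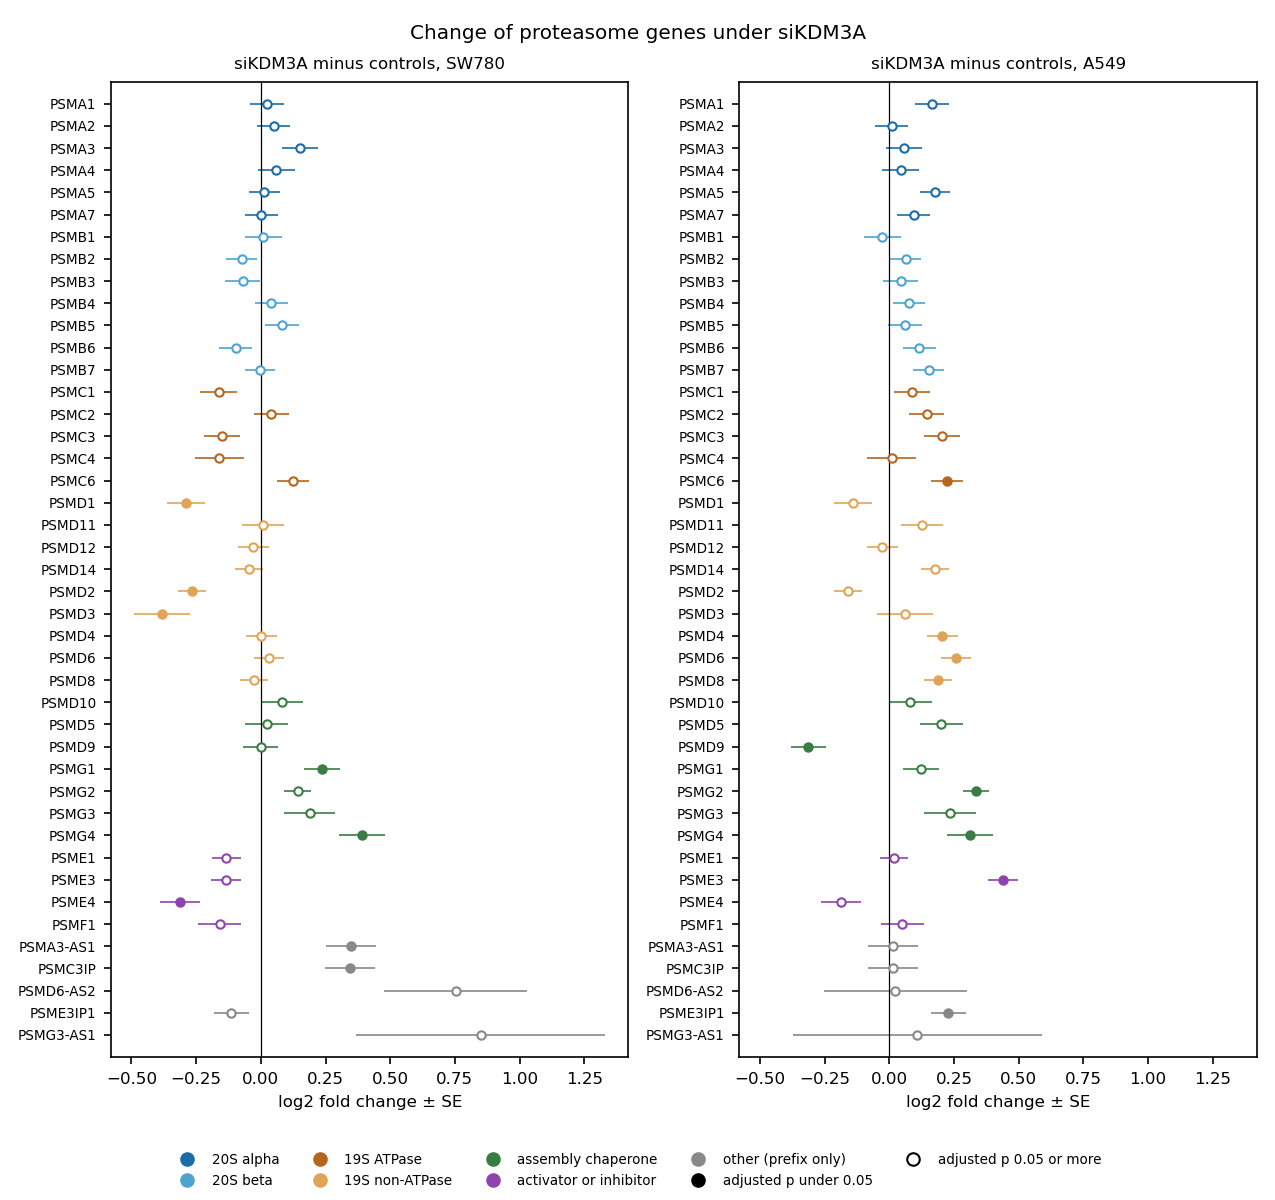
Points are log2 fold changes of siKDM3A minus controls with their SE (2 siKDM3A against 4 control arrays), SW780 on the left and A549 on the right, filled where the adjusted p was under 0.05. Core subunits are all open in both lines, and whether the core differs from all genes was not tested. Filled points lie among cap subunits, chaperones, activators and genes that share only the prefix.

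No 20S core gene passed limma's test under siKDM3A, 0 of 13 in either line. Among all genes tested, 5.68% rose and 6.15% fell in SW780, and 5.33% rose and 6.34% fell in A549. With only 13 genes a count of 0 lies close to these shares, and whether the core differs from all genes was not tested. An unadjusted p under 0.05 was found for 0 of 13 in SW780 and 3 of 13 in A549. Of all genes, 25.7% in SW780 and 25.4% in A549 had one. The largest change among alpha subunits, which form the gated outer rings, was that of PSMA3 in SW780 and of PSMA5 in A549. PSMA3 had signals of 22154 and 19704 with siKDM3A in SW780, against 21040.1 and 19472 with siFFluc and 18678 and 16401 with siEGFP, a log2 difference of 0.15 ± 0.07, adjusted p = 0.196. PSMA5 had 9331 and 9285 with siKDM3A in A549, against 8178 and 8028 with siFFluc and 8121 and 8612 with siEGFP, a difference of 0.18 ± 0.06, adjusted p = 0.0696. The PSMA5 groups in A549 did not overlap, those of PSMA3 in SW780 did. A second, dim probe set of PSMA3 stood above all controls in both lines, with 135 and 169 with siKDM3A in SW780 against 58.1 to 110.0 on controls (0.68 ± 0.22, adjusted p = 0.0756), and 198 and 239.6 in A549 against 90.9 to 147 (0.80 ± 0.22, adjusted p = 0.0377), the p-values of single probe sets being adjusted over all 32768 past the filter. Core differences ran from -0.10 to 0.15 in SW780 and from -0.03 to 0.18 in A549, with medians of 0.01 and 0.06; the A549 median turned to -0.01 after quantile normalization and the SW780 median to -0.09 after scaling to equal medians. In A549 8 of 13 core members lay above all controls, against 17.0% of all genes, and in SW780 0 of 13 lay above or below. Scaling to equal medians called PSMA1, PSMA5, PSMA7, PSMB6 and PSMB7 higher in A549, and PSMA3 was called higher in SW780 after quantile normalization (adjusted p = 0.0201), with the mean over probe sets (0.00602) and with the replicate number as a block (0.0463).

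The active-site subunits were measured in every sample. PSMB5, the chymotrypsin-like site that is the main target of bortezomib, had 10416 and 10257 with siKDM3A in SW780, against 9196 to 10619 on the 4 control arrays, and 11545 and 10119 with siKDM3A in A549, against 9973 to 10764. The groups overlapped in both lines, and neither difference passed (adjusted p = 0.477 and 0.627). PSMB6, the caspase-like site, had 13678 and 12729 with siKDM3A in SW780, against 12814 to 15826 on controls, and 12475 and 12284 in A549, against 10850.0 to 12208. PSMB7, the trypsin-like site, had 15629 and 15318 with siKDM3A in SW780, against 13332 to 17665 on controls, and 14597 and 15089 in A549, against 12567 to 14214. PSMB6 and PSMB7 stood above all controls in A549, with differences of 0.12 ± 0.06, adjusted p = 0.28 for PSMB6 and 0.15 ± 0.06, adjusted p = 0.121 for PSMB7, and lay inside the control range in SW780 apart from 1 PSMB6 array just below it.

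In the 19S cap, 3 non-ATPase subunits fell in SW780, and 1 ATPase and 3 non-ATPase subunits rose in A549, out of 14 tested. Over all genes tested, 5.68% rose and 6.15% fell in SW780, and 5.33% rose and 6.34% fell in A549. PSMD2 (Rpn1), a scaffold of the base that docks ubiquitin-like domains, had 9939 and 9463 with siKDM3A in SW780, against 12835 and 11935 with siFFluc and 11115 and 10873 with siEGFP. Both siKDM3A arrays lay below every control, and the log2 fold change was -0.27 ± 0.05, adjusted p = 0.00781. PSMD1 (Rpn2), the other large base scaffold, had 5259.8 and 5474 with siKDM3A, against 6222 and 7244 with siFFluc and 6581 and 6271 with siEGFP, again with no overlap (log2 fold change -0.29 ± 0.07, adjusted p = 0.0222). Its second probe set fell as well (-0.30 ± 0.06, adjusted p = 0.0082), where p-values of single probe sets, here and below, are adjusted over all 32768 probe sets past the filter. PSMD3 (Rpn3), a lid subunit, had 1941 and 2156 with siKDM3A, against 3334 and 2355 with siFFluc and 2559.6 and 2519 with siEGFP, a fall of wider error (-0.38 ± 0.11, adjusted p = 0.038) in which 1 siFFluc array stood apart from the other controls. In A549, PSMD2 had 6675 and 6711 with siKDM3A, against 7298 to 7565 on controls, below all of them without passing the test (-0.16 ± 0.05, adjusted p = 0.0796). PSMD1 likewise lay below all controls in A549 without passing (-0.14 ± 0.07, adjusted p = 0.264).

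PSMD6 (Rpn7), a lid subunit, had 9866 and 10063 with siKDM3A in A549, against 8078 and 8316 with siFFluc and 8748 and 8198 with siEGFP, and rose (0.26 ± 0.06, adjusted p = 0.0145). In SW780 its siKDM3A signals of 6891 and 6691 lay inside the control range of 6294 to 6939. PSMC6 (Rpt4), an ATPase of the base, had 9707 and 9642 with siKDM3A in A549, against 7806 to 8695 on controls (0.22 ± 0.06, adjusted p = 0.0359). PSMD8 (Rpn12, a lid subunit) and PSMD4 (Rpn10, a ubiquitin receptor) also rose in A549, by 0.19 and 0.21, with adjusted p-values of 0.0378 and 0.0402. PSMD14 (Rpn11), the deubiquitinase of the lid, stood just outside the threshold, with 11198 and 11488 with siKDM3A in A549 against 9786 to 10187 on controls (0.18 ± 0.05, adjusted p = 0.0552), and with 15528 and 14840.1 in SW780 against 13902 to 17836 (-0.04 ± 0.05, adjusted p = 0.665). Of the ATPases, PSMC1 (Rpt2) had the smallest p in SW780, with 13634 and 12496 with siKDM3A against 13089 to 16042 on controls, and did not pass (-0.16 ± 0.07, adjusted p = 0.161).

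All 14 cap members had a lower log2 change in SW780 than in A549, where 6349 of all 14061 genes did. The lean was not the cap's alone, since 4 of 4 activators or inhibitors and 8 of 13 core members had it. Of the chaperones 3 of 7 did. The median difference of the cap was -0.19, beside 0.04 over all genes. Of the 14 cap members 0 passed the test of that difference, where 2.75% of all genes were called, 1.78% higher and 0.974% lower. At an unadjusted p under 0.05, 7 of the 14 differences were called, where 18.2% of all genes were. The closest was PSMC3 (Rpt5, a base ATPase), at -0.35 ± 0.10, adjusted p = 0.077. After quantile normalization 13 of 14 were below 0 with a median of -0.10, and scaling to equal medians called 10 of 14 while moving the median of all genes to -0.21.

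Assembly chaperones gave the call that held in every alternative tried, that of PSMG2 in A549. PSMG2 had no other probe set, so averaging over probe sets could not change its log2 fold change. PSMG2 (PAC2), which pairs with PSMG1 to build the alpha ring, had 8335 and 8239 with siKDM3A in A549, against 6751 and 6769 with siFFluc and 6478 and 6281 with siEGFP. All siKDM3A signals lay above all controls, and the log2 fold change was 0.34 ± 0.05, adjusted p = 0.00105. In SW780 it had 13069 and 12905 with siKDM3A, against 12285 and 11954 with siFFluc and 11666 and 11195 with siEGFP, above all controls without passing the test (0.14 ± 0.05, adjusted p = 0.0965); after quantile normalization it passed there too (adjusted p = 0.0395). PSMG4 (PAC4), which pairs with PSMG3 in alpha-ring assembly, rose in both lines. It had 1752 and 1961 with siKDM3A in SW780, against 1184 and 1458 with siFFluc and 1504 and 1522 with siEGFP (0.39 ± 0.09, adjusted p = 0.0127). In A549 it had 3918 and 3455 with siKDM3A, against 2903 and 3020.1 with siFFluc and 2900.3 and 3022 with siEGFP (0.31 ± 0.09, adjusted p = 0.0372). The groups did not overlap in either line; a second, dim probe set of PSMG4 with a mean signal of 67.8 gave 0.30 ± 0.28, adjusted p = 0.592 in SW780 and -0.28 ± 0.28, adjusted p = 0.632 in A549. A mean over both probe sets ended the calls (adjusted p = 0.0624 in SW780 and 0.964 in A549).

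PSMG1 (PAC1) had 8312 and 8806 with siKDM3A in SW780, against 6458 and 6894 with siFFluc and 7878 and 7927 with siEGFP, and rose (0.24 ± 0.07, adjusted p = 0.0447). The siFFluc and siEGFP arrays differed from each other by more than siEGFP differed from siKDM3A, and with siEGFP as the only control the adjusted p was 0.469. PSMD9 (p27), a chaperone of the ATPase ring, was the member that fell in A549, with 3345 and 3363 with siKDM3A against 3977 and 4214 with siFFluc and 4221 and 4286 with siEGFP (-0.31 ± 0.07, adjusted p = 0.0104). In SW780 its siKDM3A signals of 2929.6 and 2862 lay inside the control range of 2528 to 3205. With the mean over its probe sets, a dim one included, it was called higher in SW780 (0.43, adjusted p = 0.0222). PSMD10 (gankyrin), another ATPase-ring chaperone, had 6401 and 6770.1 with siKDM3A in SW780 against 5363 to 7442 on controls, and 7728 and 8108 in A549 against 6305 to 8373, inside the control range in both. A second PSMD10 probe set was higher in A549 (0.41 ± 0.10, adjusted p = 0.0259), a disagreement noted after its values were seen. By count, 2 of 7 chaperones rose and 0 fell in SW780, where 5.68% and 6.15% of all genes did. In A549 2 rose and 1 fell, where 5.33% and 6.34% of all genes did. PSMD5 and PSMG3 passed in neither line.

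**Figure D3:**
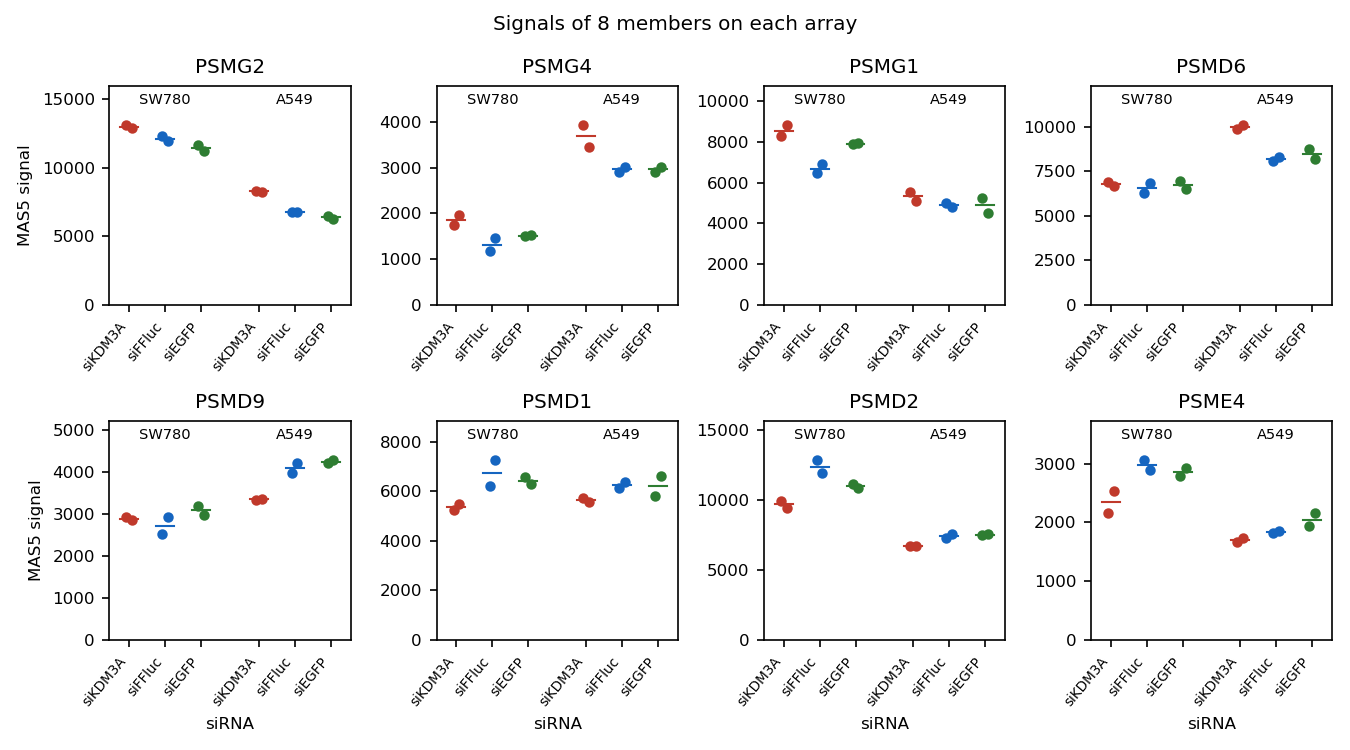
Points are MAS5 signals of 8 members on single arrays and lines are the means of 2 arrays, with siKDM3A, siFFluc and siEGFP from left to right in SW780 and then in A549, on linear axes that start at 0. PSMG2 and PSMG4 stand above all controls of their line in both lines, and PSMD1, PSMD2 and PSME4 below them.

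Among activators and inhibitors, PSME4 fell in SW780 and PSME3 rose in A549, out of 4 tested. Over all genes tested, 6.15% fell in SW780 and 5.33% rose in A549. PSME4 (PA200), a nuclear activator that caps the core without ATP, had 2159.5 and 2543 with siKDM3A in SW780, against 3058 and 2885 with siFFluc and 2784 and 2930.4 with siEGFP (-0.31 ± 0.08, adjusted p = 0.0203). All 3 of its probe sets had negative values, between -0.31 and -0.27, and the other 2 did not pass. In A549 PSME4 had 1667 and 1734 with siKDM3A, against 1823 to 2155 on controls, below all of them without passing (-0.19 ± 0.08, adjusted p = 0.143). PSME1 (PA28 alpha), the interferon-inducible activator, had 8704 and 8607 with siKDM3A in SW780 against 8189.6 to 10677 on controls, and 5631 and 5878 in A549 against 5547 to 5853, overlapping the controls in both lines.

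PSME3 (PA28 gamma), the nuclear activator that degrades some proteins without ubiquitin, had 4862 and 4939 with siKDM3A in A549, against 3409 and 3530.1 with siFFluc and 3732 and 3781 with siEGFP (0.44 ± 0.06, adjusted p = 0.000396). In SW780 it had 4703 and 4592, against 4988 and 5516 with siFFluc and 4974 and 4979 with siEGFP (-0.14 ± 0.06, adjusted p = 0.158), below all controls. It was the member whose change differed between the lines, by -0.58 ± 0.08, adjusted p = 0.00499, where 2.75% of all genes were called. The other 3 probe sets of PSME3 did not pass in A549, as was noted after their values were seen. One of them, 209853_s_at, stood above all controls there, with 3729 and 3902 with siKDM3A against 3167 to 3520.2. The 3 gave 0.21 ± 0.07, adjusted p = 0.0886, -0.03 ± 0.12, adjusted p = 0.935 and -0.09 ± 0.08, adjusted p = 0.603. Their differences between lines were all negative but none passed, with adjusted p-values from 0.0746 to 0.661. The PSME3 call thus held for 1 of 4 probe sets, and a mean over its probe sets gave an adjusted p of 0.198 in A549.

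PSMF1 (PI31), known as an inhibitor of the core in vitro, had a probe set that was called in opposite directions in the 2 lines while the one of highest mean passed in neither, also noted after the values were seen. The probe set of highest mean gave 2717 and 2228 with siKDM3A in SW780 against 2554 to 2874 on controls, and 4412 and 4104 in A549 against 3914 to 4318, and passed in neither line. Another, of nearly the same mean signal, had 3113 and 3311 with siKDM3A in SW780 against 2423 to 3104 on controls, and 2946 and 3021 in A549 against 4161 to 4390.4. It was higher in SW780 (0.29 ± 0.08, adjusted p = 0.042) and lower in A549 (-0.52 ± 0.08, adjusted p = 0.00116), and the difference between lines was 0.81 ± 0.11, adjusted p = 0.00531. A dimmer one, 236012_at, lay below all controls in both lines without passing, with 135 and 157 with siKDM3A in SW780 against 186 to 207 (-0.39 ± 0.14, adjusted p = 0.111) and 297 and 343 in A549 against 389.5 to 457 (-0.37 ± 0.14, adjusted p = 0.128), so no direction holds for the gene. Of the other members, the second probe set of PSMD12 (Rpn5, a lid subunit) fell in SW780 (-0.34 ± 0.08, adjusted p = 0.0163) where the one of highest mean gave -0.03.

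**Figure D4:**
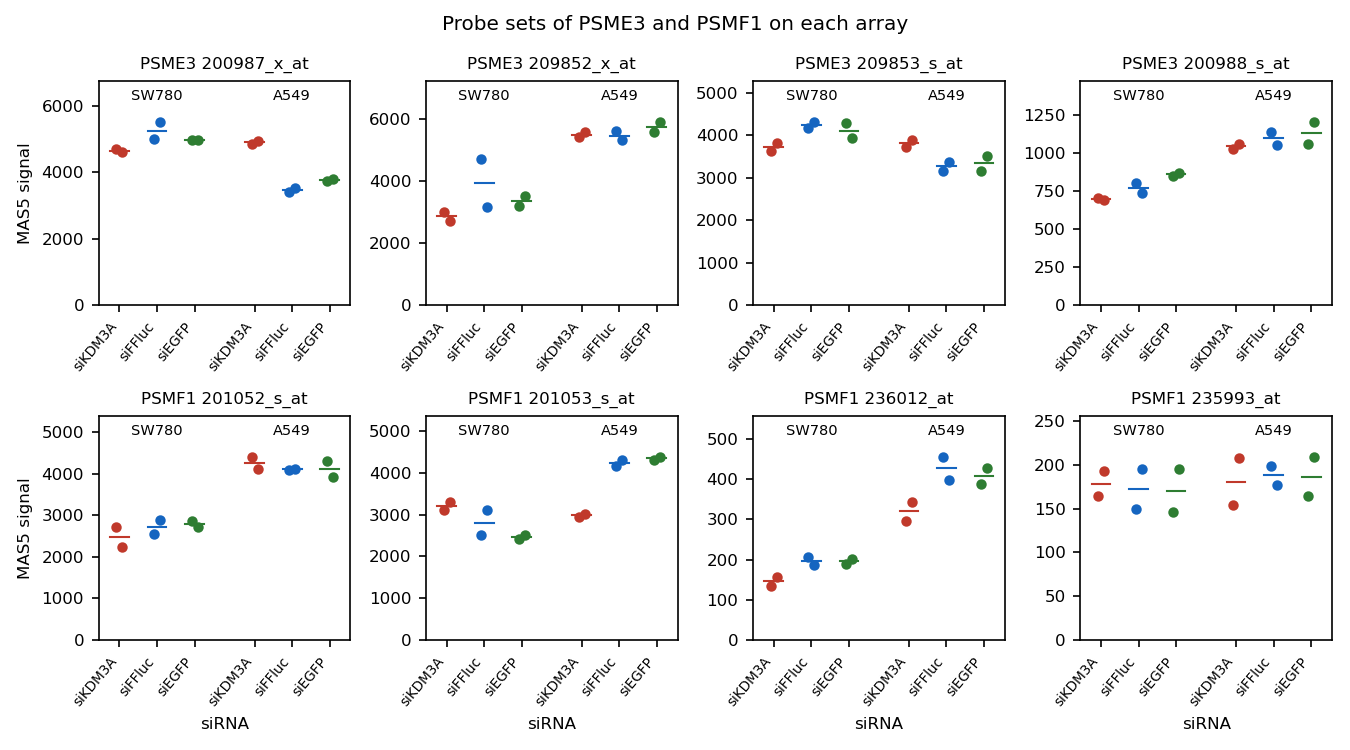
Points are MAS5 signals of every probe set of PSME3 (upper panels) and PSMF1 (lower panels) past the signal filter on single arrays, with siKDM3A, siFFluc and siEGFP from left to right in SW780 and then in A549, and lines are means of 2 arrays. Probe set 200987_x_at of PSME3 stands above its controls in A549 while 209852_x_at does not, and 201053_s_at of PSMF1 runs opposite ways in the 2 lines.

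The bases before the start site of PSME3, PSMG4 and PSMD9 are shown since these carried the difference between lines, the rise in both lines and the fall in A549. Each is the 250 bases upstream of the RefSeq start on the plus strand of GRCh38.p14, written 5′ to 3′, with capitals for the motif matches found on either strand: the E-box CACGTG, the CCAAT box (ATTGG on the other strand), the interferon response element core (GAAA, any 2 bases and GAAA) and the antioxidant response element core TGACNNNGC, which NFE2L1 can bind.
PSME3 at chr17:42833147-42833396: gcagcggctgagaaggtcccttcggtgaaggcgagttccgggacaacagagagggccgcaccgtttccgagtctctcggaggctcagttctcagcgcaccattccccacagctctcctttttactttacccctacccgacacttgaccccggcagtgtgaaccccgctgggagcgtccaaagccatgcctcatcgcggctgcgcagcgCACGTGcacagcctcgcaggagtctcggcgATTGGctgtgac
PSMG4 at chr6:3258697-3258946: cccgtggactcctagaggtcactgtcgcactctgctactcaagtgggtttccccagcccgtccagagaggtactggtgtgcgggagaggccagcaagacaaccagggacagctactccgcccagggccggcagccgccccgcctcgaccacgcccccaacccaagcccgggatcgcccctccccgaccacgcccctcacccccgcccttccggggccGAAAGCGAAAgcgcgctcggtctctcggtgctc
PSMD9 at chr12:121888540-121888789: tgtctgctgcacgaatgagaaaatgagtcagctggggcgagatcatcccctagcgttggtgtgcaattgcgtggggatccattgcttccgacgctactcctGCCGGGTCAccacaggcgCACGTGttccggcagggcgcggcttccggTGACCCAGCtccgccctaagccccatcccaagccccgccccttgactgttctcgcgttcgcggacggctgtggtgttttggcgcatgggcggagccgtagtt
PSME3 held an E-box 42 bases and a CCAAT box 12 bases before the start, PSMG4 the interferon response element core 33 bases before it, and PSMD9 an E-box 131 bases and antioxidant response element cores 149 and 102 bases before it, and no 2 matches overlapped. RefSeq promoter entries, from 250 bases before to 50 after a start, were found for 33 of the 39 proteasome genes, with 39 windows. TGACNNNGC occurred in 30.8% of member windows and 13.3% of all 35116 windows, the interferon response element core in 10.3% and 3.57%, CCAAT in 41.0% and 34.6%, and CACGTG in 7.69% and 7.26%. Some genes have more than 1 window, and a match is a description of the letters, not evidence of binding. TGACNNNGC occurred in 12 of the 33 genes. Of the called proteasome genes, PSMD1, PSMD3, PSME4 and PSMG1 in SW780 and PSMD9 and PSMG2 in A549 had it. The called PSMD2 and PSMG4 in SW780 and PSMC6, PSMD6, PSMD8, PSME3 and PSMG4 in A549 did not, and PSMD4 had no promoter entry. Genes with the motif went in both directions, and a link between motif and response was not tested.

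The 7 genes that share only the prefix are not proteasome subunits and were counted because the naming rule takes them in. Without them, 2 of 38 members rose and 4 fell in SW780, where 5.68% and 6.15% of all genes did. In A549 7 of 38 rose and 1 fell, where 5.33% and 6.34% of all genes did. PSMA3-AS1, an antisense RNA, had 707 and 723 with siKDM3A in SW780, against 526 to 592 on controls (0.35 ± 0.10, adjusted p = 0.0335). PSMC3IP, a meiotic recombination factor, had 1064 and 1139 with siKDM3A in SW780, against 662 and 841 with siFFluc and 1033 and 966 with siEGFP (0.35 ± 0.10, adjusted p = 0.0343), so its siKDM3A and siEGFP arrays were close. PSME3IP1, a partner protein of PSME3, had 2855 and 3208 with siKDM3A in A549, against 2393 to 2712 on controls (0.23 ± 0.07, adjusted p = 0.0441). PSMD6-AS2 and PSMG3-AS1 were dim, at 141.0 or less on every array, and passed no test.

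Most single calls hung on few arrays. In SW780 the 8 calls fell to 0 with siEGFP as the only control and stood at 9 with siFFluc as the only control. With 1 array left out at a time, they numbered 2 without SW780 siKDM3A replicate 1, 1 without SW780 siKDM3A replicate 2, 3 without either SW780 siEGFP array, 5 without either A549 siFFluc array and 4 without either A549 siKDM3A array. The calls of PSMD2 and PSMG4 ended without SW780 siKDM3A replicate 2 (log2 fold changes -0.23 and 0.31), and that of PSME4 without replicate 1 (-0.19). Those of PSMD1, PSMD3, PSMG1, PSMA3-AS1 and PSMC3IP ended without either of these arrays. PSMD1 was at -0.26 without replicate 1 and -0.32 without replicate 2, and PSMD3 at -0.30 and -0.46. In A549 the 9 calls numbered 2 without either A549 siKDM3A array, 4 without A549 siEGFP replicate 1 or either A549 siFFluc array, and 14 without either SW780 siFFluc array. PSMG2 and PSME3 stayed called without any 1 array, with adjusted p-values up to 0.0285 and 0.0135. PSMD6 and PSMD9 lost the call without A549 siKDM3A replicate 1 (0.102 and 0.101) and without replicate 2 (0.146 and 0.0973). PSMC6, PSMD4, PSMD8, PSMG4 and PSME3IP1 also lost it without single control arrays. Quantile normalization ended the calls of PSMD4 (0.0516) and PSMD8 (0.148) in A549 and of PSMG1 (0.0795) in SW780, and called PSMD2 lower in A549 (0.00298). Scaling to equal medians ended those of PSMD9 in A549 (0.154) and of PSMA3-AS1, PSMC3IP, PSMG1 and PSMG4 in SW780 (adjusted p-values from 0.0537 to 0.345). The PSME3 difference between lines had an adjusted p of 0.0512 without A549 siKDM3A replicate 2.

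Of 25 further genes of the pathway listed alongside the members, 20 were tested, and 0 rose and 2 fell in SW780, and 2 rose and 1 fell in A549. NFE2L1, the factor that raises subunit genes, fell in both lines on the deposited scale. It had 2224 and 2076 with siKDM3A in SW780, against 2443 to 2743 on controls (-0.28 ± 0.07, adjusted p = 0.0257), and 2361 and 2261 in A549, against 2602 to 2970.3 (-0.29 ± 0.07, adjusted p = 0.0224). A mean over its probe sets did not pass (0.104 in SW780 and 0.253 in A549). In A549 scaling to equal medians took the value to -0.13 (adjusted p = 0.297), and the call ended with siFFluc as the only control (0.107), as it did in SW780 with siEGFP (0.0793). The call also ended without SW780 siEGFP replicate 2 in SW780 and, in A549, without the second siEGFP or second siFFluc array, and without either siKDM3A array of the line, with adjusted p-values of 0.0754 and 0.203 in SW780 and 0.105 and 0.205 in A549. VCP, the segregase that extracts ubiquitinated proteins, fell in SW780, with 3124 and 3321 with siKDM3A against 3947 to 4862 on controls (-0.39 ± 0.07, adjusted p = 0.0047, and 0.0662 without SW780 siKDM3A replicate 1). ADRM1 (Rpn13, a ubiquitin receptor of the cap) and TXNL1, a redox protein bound to the cap, rose in A549, by 0.26 and 0.22 (adjusted p = 0.0389 and 0.032), and neither call held without either A549 siKDM3A array. RAD23B, a shuttle that carries substrates to the proteasome, had a lower change in SW780 than in A549 (-0.43 ± 0.10, adjusted p = 0.0398), a difference that ended when any of 9 single arrays was left out, siKDM3A arrays of both lines included. The mean over its probe sets gave -0.09 (adjusted p = 0.747), and quantile normalization also ended the call (0.0771). The immunoproteasome genes PSMB8, PSMB9 and PSMB10 passed in neither line.

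The 2 controls were compared with each other as a background for the knockdown. In A549 0 of 43 members differed between siFFluc and siEGFP, where 2.92% of all genes were called (1.43% higher and 1.49% lower), and 2 members had an unadjusted p under 0.05, where 12.8% of all genes did. There 9 members had both siFFluc arrays above both siEGFP arrays and 11 had both below, where 24.4% and 21.7% of all genes did. In SW780 5 members were higher and 1 lower with siFFluc, where 5.57% of all genes were called, 2.97% higher and 2.60% lower. PSME1 had 10457 and 10677 with siFFluc, against 8881 and 8189.6 with siEGFP (0.31 ± 0.06, adjusted p = 0.0157). PSMB7 had 16992 and 17665, against 14451 and 13332 (0.32 ± 0.07, adjusted p = 0.0198), and PSMD14 had 17836 and 16734, against 14486 and 13902 (0.28 ± 0.06, adjusted p = 0.0229). PSMB4, a structural beta subunit, had 20893 and 20146 with siFFluc, against 17854 and 15576 with siEGFP (0.30 ± 0.07, adjusted p = 0.032), and all 3 of its probe sets were called higher. PSMA7, an alpha subunit, had 26322 and 25237, against 21853 and 19881 (0.31 ± 0.07, adjusted p = 0.0325), while its second probe set gave -0.20 ± 0.09, adjusted p = 0.243. PSMC3IP was the gene that was lower, at 662 and 841, against 1033 and 966 (-0.41 ± 0.11, adjusted p = 0.0481).

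In SW780 26 members had both siFFluc arrays above both siEGFP arrays and 6 had both below, where 23.6% and 22.3% of all genes did. All 13 core members were among those above, and their median log2 difference was 0.22; after quantile normalization the median was -0.0002, 7 of 13 were below 0 and 0 of 43 members were called. Scaling to equal medians also left 0 called, with the core median at 0.23. The siFFluc arrays had the brightest upper range in SW780, with a 99th percentile of 18013 and 16911 against 15525 and 14328 with siEGFP, and mean signals of 908 and 874 against 836 and 804; the part of these shifts in the result was not tested beyond those scalings. The count was 0 without SW780 siEGFP replicate 2, 2 without SW780 siFFluc replicate 1 and 13 without SW780 siFFluc replicate 2. It was 3 without either A549 siFFluc array and 2 without either A549 siKDM3A array. Of the other pathway genes, the ubiquitin gene UBB, the ubiquitin-binding ZFAND5 and the core chaperone POMP were higher with siFFluc in SW780 (by 0.42, 0.32 and 0.29, adjusted p = 0.0132, 0.0328 and 0.0495), and each call ended without SW780 siEGFP replicate 2 and after quantile normalization. In A549 PITHD1, a protein that binds the proteasome, was lower with siFFluc (-0.33 ± 0.07, adjusted p = 0.016), and not without any 1 of the 4 A549 control arrays.

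Between the lines, control SW780 arrays differed from control A549 arrays in 37 of 43 members, 29 higher and 8 lower in SW780, where 68.9% of all genes were called, 30.1% higher and 38.8% lower. All 4 SW780 control arrays lay above all 4 of A549 in 26 members and below in 5, where 25.3% and 33.8% of all genes did. The median log2 difference of the members was 0.39, beside -0.11 over all genes, and 0.17, beside -0.05, after quantile normalization, which left 25 higher and 9 lower. Line and culture medium cannot be told apart here. The core was mostly higher, 11 of 13, with a median of 0.42 that became 0.15 after quantile normalization, where 8 were higher and 2 lower. PSMB2, a structural beta subunit, had the largest core difference, with 15848 to 19624 on the 4 control arrays of SW780 against 9900.2 to 10189.7 in A549 (0.85 ± 0.05, adjusted p = 4.69e-09). PSMA1 and PSMB5 did not pass, PSMB5 lying at 9196 to 10619 in SW780 and 9973 to 10764 in A549 (-0.09 ± 0.05, adjusted p = 0.176); after quantile normalization these are the 2 called lower, PSMA1 at -0.17 and PSMB5 at -0.27, while scaling to equal medians called PSMA1 higher (0.22). PSMB6 and PSMB7 differed by 0.31 ± 0.05 and 0.22 ± 0.05, both higher in SW780 on the deposited scale, PSMB7 with overlapping arrays, and after quantile normalization neither passed, at 0.07 and -0.04.

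Cap subunits were higher in 10 of 14 cases and lower in 2, where 30.1% and 38.8% of all genes were. Their median of 0.55 became 0.33 after quantile normalization. PSMC3 (Rpt5) had 7503 to 8617 on control SW780 arrays, against 4346 to 4833 in A549 (0.81 ± 0.06, adjusted p = 2.6e-08). PSMD14, the deubiquitinase, had 13902 to 17836, against 9786 to 10187 (0.64 ± 0.04, adjusted p = 2.54e-08). Against the run of the cap, PSMC4 (Rpt3) was lower, with 5863 to 7396 in SW780 against 7271 to 11055 in A549 (-0.48 ± 0.08, adjusted p = 8.51e-05), and so was PSMD6, with 6294 to 6939 against 8078 to 8748 (-0.33 ± 0.05, adjusted p = 4.32e-05). The PSMC4 arrays of the 2 lines overlapped and those of PSMD6 did not.

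The 7 chaperones split, 3 higher (PSMD5, PSMG1 and PSMG2) and 4 lower (PSMD9, PSMD10, PSMG3 and PSMG4) in SW780, as deposited and after quantile normalization, and 3 and 3 after scaling to equal medians. Over all genes tested, 30.1% were higher and 38.8% lower as deposited. The pair that builds the alpha ring was higher: PSMG2 had 11195 to 12285 on control SW780 arrays against 6281 to 6769 in A549 (0.84 ± 0.04, adjusted p = 8.89e-10), and PSMG1 had 6458 to 7927 against 4521 to 5251 (0.57 ± 0.06, adjusted p = 9.83e-07). The other pair was lower: PSMG4 had 1184 to 1522 in SW780 against 2900.3 to 3022 in A549 (-1.06 ± 0.07, adjusted p = 1.93e-08), and PSMG3 had 1528 to 2307 against 2369 to 2627 (-0.38 ± 0.08, adjusted p = 0.000993, and 0.129 with siEGFP as the only control). PSMG4, at 0.479 of its A549 level, was the largest difference among the members called. Of the activators, PSME1 had 8189.6 to 10677 in SW780 against 5547 to 5853 in A549 (0.74 ± 0.04, adjusted p = 6.53e-09), and PSME4 was higher by 0.58 ± 0.06. PSME3 was higher by 0.50 ± 0.05 on its probe set of highest mean, while 209852_x_at and 200988_s_at gave -0.64 and -0.45, both called lower, so no direction holds for the gene. PSMF1 was lower (-0.58 ± 0.07, adjusted p = 5.67e-06). Of the 37 called members 24 kept the call in every alternative tried, among them PSMB2, PSMC3, PSMD14, PSME1, PSMG2 and PSMG4. Sizes varied: with the mean over probe sets PSMB2 was at 0.20 and PSMG4 at -0.63, and a dim probe set of PSMB2 gave -0.62 ± 0.15, adjusted p = 0.00241. Of the 20 other pathway genes tested, 10 were higher and 4 lower, 70.0% called beside 68.9% of all genes. Among those called were PITHD1 (1.06 ± 0.05), the cap subunit SEM1 (0.81 ± 0.06) and the shuttle UBQLN4 (-1.01 ± 0.08). The immunoproteasome genes PSMB8 and PSMB10 were higher by 0.94 ± 0.08 and 1.00 ± 0.06. PSMB9, also of the immunoproteasome, was not called (0.06), with 1652.8 to 2596.6 on control SW780 arrays against 1949.0 to 2107.5 in A549.

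**Figure D5:**
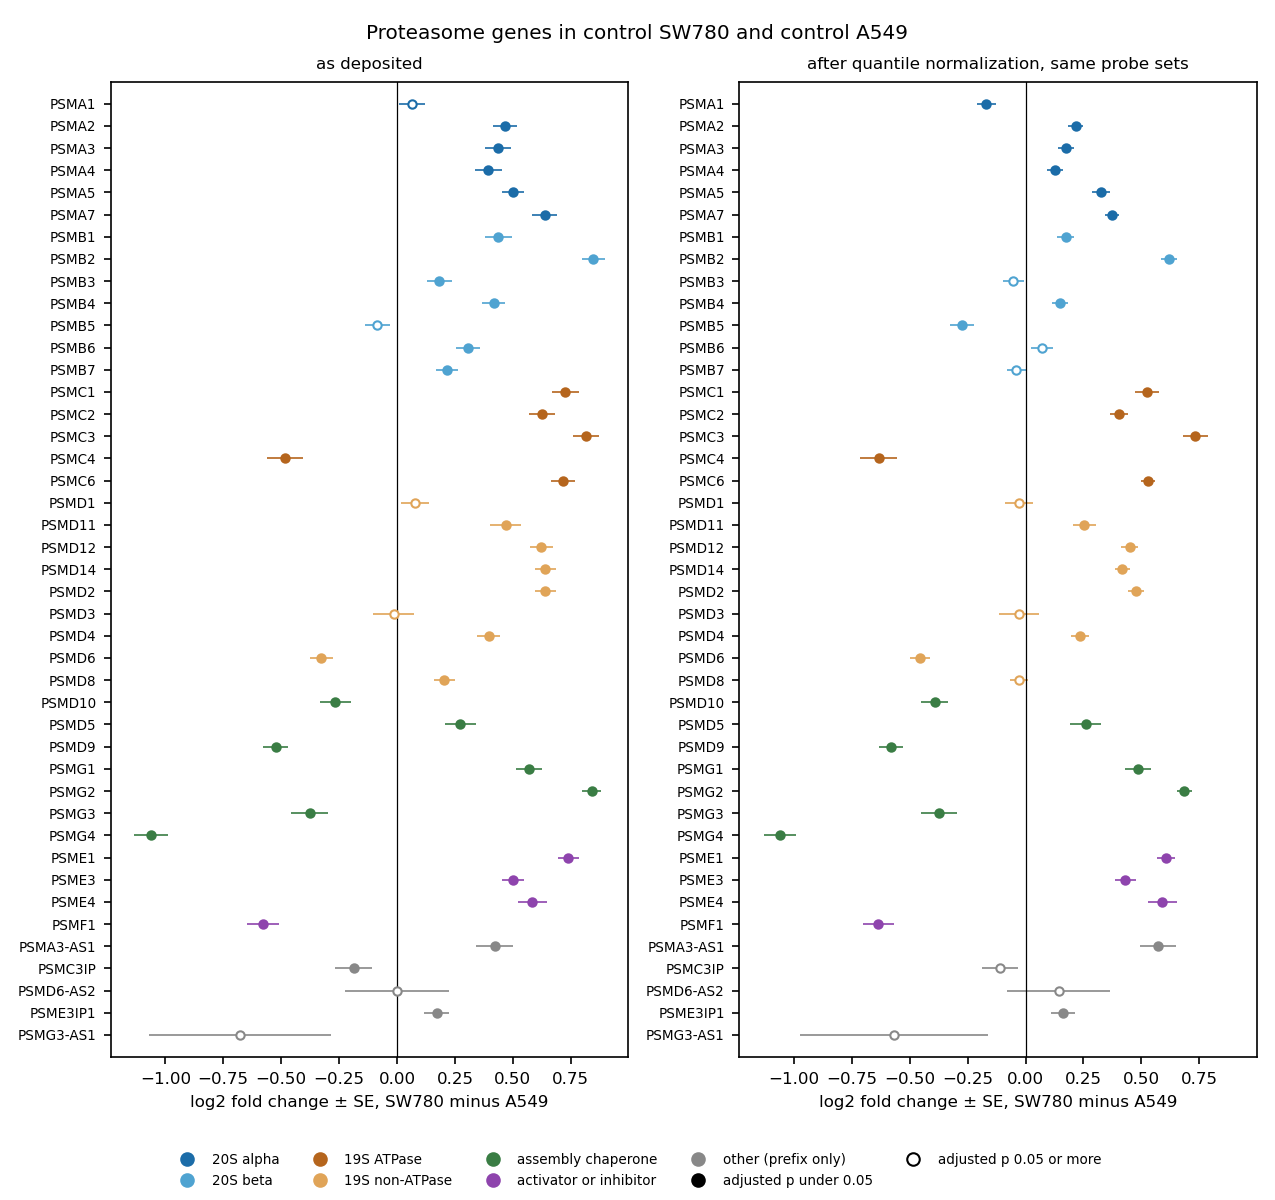
Points are log2 fold changes of control SW780 minus control A549 arrays (4 each) with their SE, for signals as deposited on the left and after quantile normalization with the same probe sets on the right, filled where the adjusted p was under 0.05. Most core and cap subunits lie right of 0 and move left under quantile normalization, while PSMG4, PSMD9, PSMF1 and PSMC4 lie left of 0 in both panels.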

How the data were processed

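The authors deposited MAS5 signal intensities, on a linear scale; the submitters' processing notes name MAS5 with no version. The trimmed mean of each array (2% left out at each end) was 500.1, so the authors had scaled the arrays to 1 target. Of 54675 probe sets, 62 controls were removed, and the 2016 annotation gave 1 symbol to 41091 of the rest, more than 1 to 1801 and none to 11721. Symbols were updated through RefSeq (GRCh38.p14), which matched 41037. Probe sets with a mean signal at or above the 40th percentile (33.6) were kept, 32768 in all, and the one of highest mean stood for each of 14061 genes.

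Log2(signal + 16) was fitted with 1 mean for each of 6 groups in limma 3.58.1 (R 4.3.3) with a trended prior variance. siKDM3A was set against the average of the siFFluc and siEGFP means of its line. Adjusted p-values are Benjamini-Hochberg over all genes. The fit was tested on simulated arrays with independent noise and with changes larger than those called in members under siKDM3A. The simulation did not cover changes as small as these or shifts shared by a whole array. Python 3.11.15 and matplotlib 3.10.9 were used for tables and figures.

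The members and lists were chosen with earlier results of these data known. Per-array values are given for KDM3A, for up to 6 called members of smallest p per comparison, for the member of smallest p in each subcomplex and line, and for PSMB5, PSMB6, PSMB7, PSMD14, PSME1, PSMD10 and PSMF1. Of the other pathway genes, up to 3 called per comparison are named. Alternatives changed the pseudocount, filter, scaling, probe-set rule, prior variance, controls, replicate block and arrays used. Quantile normalization with the deposited probe sets, and single probe sets, were added after seeing the data. Promoter windows are RefSeq's.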

Additional observations from a re-analysis of the deposited data

Results flagged for a closer look

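The response of PSME3 to siKDM3A differed between the lines by the test of the difference itself. The log2 change in SW780 minus that in A549 was -0.58 ± 0.08, with limma's adjusted p at 0.00499. Its siKDM3A signals lay under the 4 controls in SW780 and over them in A549. Only 1 of its 4 probe sets passed that test, and the reason for the disagreement was not tested.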

How the results depend on the processing

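Of the counts of called members, the line difference (37) stayed within 1.5 times under every alternative, and 35 to 39 were called when 1 array at a time was left out. The siKDM3A count in SW780 (8) was 0 with siEGFP as the only control, 1 without a trend in the prior variance and 1 to 9 with 1 array left out. The count in A549 (9) was 19 after scaling to equal medians, 4 without the filter, 2 without the trend, 4 with siEGFP and 5 with siFFluc as the only control, and 2 to 14 with 1 array left out. The difference between lines (1) was 21 after scaling to equal medians, 2 after quantile normalization with the deposited probe sets and 0 to 4 with 1 array left out. For siFFluc against siEGFP in SW780 (6) the count was 0 after scaling to equal medians, after both quantile normalizations and without the trend, 3 without the filter and 0 to 13 with 1 array left out. In A549 (0) it was 1 with the mean over probe sets and 0 to 1 with 1 array left out. The log2 change of KDM3A lay between -0.94 and -0.77 in SW780 and between -0.99 and -0.95 in A549 with 1 array left out.

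Over the 43 members in each comparison and the other pathway genes named, signs turned as follows where either value was called. With the mean over probe sets the values were -0.23 for PSMB2 and -0.015 for TXNL1 under siKDM3A in A549, 0.43 for PSMD9 under siKDM3A in SW780, -0.0019 for POMP and -0.17 for PSMB7 in siFFluc against siEGFP in SW780, and -0.12 for PSMD11 and -0.062 for PSME3 between the lines. After quantile normalization the line differences were -0.17 for PSMA1, -0.053 for PSMB3, -0.040 for PSMB7 and -0.030 for PSMD8, and where it chose another probe set PSME3 was -0.10 under siKDM3A in A549 and -0.72 between the lines. With siEGFP as the only control PSMC3IP was 0.0026 between the lines. For the other moved counts the cause was not tested.

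Deviations of equal replicate numbers correlated between -0.03 and 0.019 over 14061 genes in the 6 pairs of groups within a line. A correlation over all genes does not measure a shift of the bright genes alone. In SW780 replicate 1 had the higher mean signal with every siRNA. The arrays stood at 836.0 and 803.6 with siEGFP, 908.1 and 874.4 with siFFluc, and 869.6 and 834.3 with siKDM3A. In A549 the order differed between siRNAs, and whether the replicate numbers mark a shared batch was not tested. With the number as a replicate block the counts were 7 for siKDM3A in SW780, 11 in A549, 1 for the difference, 10 for siFFluc against siEGFP in SW780, 0 in A549 and 36 between the lines.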
